A study of Homo sapiens with 19 samples.

Results

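H3K27ac, the acetylation of lysine 27 on histone H3 that marks active promoters and enhancers, was examined at 8 genes of megakaryocytes and platelets. ITGA2B, ITGB3, GP1BA, GP9, PF4, THBS1, VWF and SELP were found by symbol in the GENCODE v44 annotation of hg38, and all 8 were present among its 20033 protein-coding genes. H3K27ac peaks were taken at each transcription start site (TSS), allowing a gap of 500 bp, and within 50 kb of a TSS. The peaks came from ChIP-seq of 4 human leukaemia cell lines, with 1 library a line and no replicates. HL-60 and Molm13, both derived from acute myeloid leukaemia (AML), received no treatment. OCI-AML3, also an AML line, and K562, from chronic myeloid leukaemia, had been transduced with a lentiviral dCas9-KRAB-mCherry vector and an empty sgRNA vector with a BFP reporter, and sorted for mCherry and BFP. Since every vector-bearing culture was of another line than the untransduced cultures, the effects of vector and line cannot be told apart. The series holds 19 samples in 16 groups, of which 14 samples without a peak list were not analysed here.

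Megakaryocytes are the large cells of the bone marrow that shed platelets, and they share a progenitor with red cells. Platelets stop bleeding in a sequence of adhesion, activation and aggregation. The glycoprotein (GP) Ib-IX-V complex catches von Willebrand factor on the injured vessel wall, granules release their stored proteins, and the integrin that pairs the products of ITGA2B and ITGB3 binds fibrinogen and joins platelets to each other. Transcription factors of the GATA and ETS families drive many genes of this lineage. K562 cells have erythroid features and can be driven towards megakaryocytic features by phorbol ester, whereas HL-60, Molm13 and OCI-AML3 resemble granulocytic or monocytic precursors.

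The lists differed in length and spread. HL-60 was the sparsest, with 20772 peaks on 24.1 Mb, followed by Molm13 with 35136 on 58.2 Mb, OCI-AML3 with 37571 on 70.2 Mb and K562 with 37424 on 76.8 Mb, counting chromosomes 1 to 22, X and Y. Read numbers were not given, so the depth behind each list is unknown. Fold enrichment, the authors' ratio of ChIP signal to local background, is therefore given with its percentile among the peaks of its own list, and only percentiles are set side by side. Erythroid markers set K562 apart from the other lines, whereas granulocyte and monocyte markers hardly separated it from HL-60. Of 9 granulocyte and monocyte markers, 9 carried a TSS peak in Molm13 and in OCI-AML3, 7 in HL-60 and 6 in K562. MPO, ELANE and CEBPE had none in K562, while LYZ and CSF3R had none in HL-60 but carried one in K562. Of 9 erythroid markers, 8 carried a TSS peak in K562, all but AHSP, whereas EPOR was the 1 marker with a peak in each of the other lines.

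The sequences just upstream of the member genes show how unlike their promoters are. Table entries of RefSeq (GRCh38.p14, 35116 promoters) were matched for 4 of the 8 genes, namely ITGA2B, GP9, THBS1 and SELP, and 3 are printed as the 250 bases before the start, 5′ to 3′ on the strand of the gene. ITGA2B, at chr17:44389650-44389899 on the minus strand, is shown because it was the member with TSS peaks in most lines, and its capitals mark a GATA motif. The searched motif was AGATAA or its variants AGATAG with the last base changed, TGATAA with the first base changed and TGATAG with both changed, on either strand. GP9, at chr3:129060529-129060778 on the plus strand, is shown for its place among promoters without a peak or a match to that motif. THBS1, at chr15:39580829-39581078 on the plus strand, is shown for its CpG content, and its capitals mark CpG dinucleotides.
ITGA2B: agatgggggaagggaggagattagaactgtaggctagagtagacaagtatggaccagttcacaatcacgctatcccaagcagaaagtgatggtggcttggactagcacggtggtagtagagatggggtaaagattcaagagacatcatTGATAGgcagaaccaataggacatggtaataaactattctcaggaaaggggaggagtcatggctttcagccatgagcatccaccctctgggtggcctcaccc
GP9: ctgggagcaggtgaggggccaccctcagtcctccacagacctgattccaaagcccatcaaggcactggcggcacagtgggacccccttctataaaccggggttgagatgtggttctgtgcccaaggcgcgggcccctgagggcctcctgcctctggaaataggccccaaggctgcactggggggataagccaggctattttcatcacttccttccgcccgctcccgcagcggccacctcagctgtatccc
THBS1: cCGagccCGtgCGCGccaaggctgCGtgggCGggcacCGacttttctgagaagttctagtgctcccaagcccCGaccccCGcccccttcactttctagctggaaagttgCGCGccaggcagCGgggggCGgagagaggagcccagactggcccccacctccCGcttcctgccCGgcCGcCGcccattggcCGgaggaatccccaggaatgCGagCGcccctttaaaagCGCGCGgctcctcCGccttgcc

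The ITGA2B window held 2 CpG dinucleotides, fewer than most promoters, whose median was 11. Its GATA match, TGATAG, lay 102 to 97 bases before the start on the strand of the gene, and 22.3% of all promoters in the table held at least 1 match in a window of this length. The SELP window held 1 CpG and also 1 match, TGATAA on the other strand at 108 to 103 bases before the start. GP9 held 8 CpG and THBS1 24, and neither had a match to the searched motif. The GP9 window does hold the letters GATA within GGATAA, which is not among the searched forms. The ITGA2B window likewise holds them within GGATAG on the other strand, also not a searched form. GGAA, the core of ETS motifs, occurred 2 times in ITGA2B, 4 times in GP9, 4 times in THBS1 and 6 times in SELP, counting either strand, and 92.7% of all promoters held it. A match describes letters in a window and is not a measured binding site.

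Few of the member genes carried H3K27ac at a TSS. In HL-60 a TSS peak was found at 1 of 8 members, compared with 44.7% of all protein-coding genes. Molm13 had 1 of 8, against 53.9% of coding genes. In OCI-AML3 the count was 0 of 8, against 57.7%. K562 reached 2 of 8, against 55.9%. Thus the members fell below the share of all coding genes in each of the 4 lists, K562 included. The genes concerned were ITGA2B in HL-60, Molm13 and K562, and ITGB3 in K562. The other 6 members had a TSS peak in no line, a state shared by 35.4% of coding genes. With 1 library a line, no test between lines was possible, and the counts describe these libraries.

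Peaks away from any TSS were closer to the general share. Such a distal peak within 50 kb was found for 5 of 8 members in HL-60, against 45.2% of coding genes. Molm13 had 4 of 8, against 63.6%, and OCI-AML3 had 3 of 8, against 60.1%. K562 had 5 of 8, against 61.5%. The HL-60 count included GP9 and THBS1 peaks with q-values above 0.05, and at that limit it was 3. In Molm13 the only distal peak of ITGB3 had a q-value of 0.0771, and at the limit the count was 3. Those of OCI-AML3 and K562 stayed at 3 and 5. Without that limit, ITGA2B, ITGB3 and VWF had a distal peak in every line, GP9 in all but OCI-AML3, PF4 in K562 and THBS1 in HL-60. GP1BA and SELP had none.

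**Figure D1:**
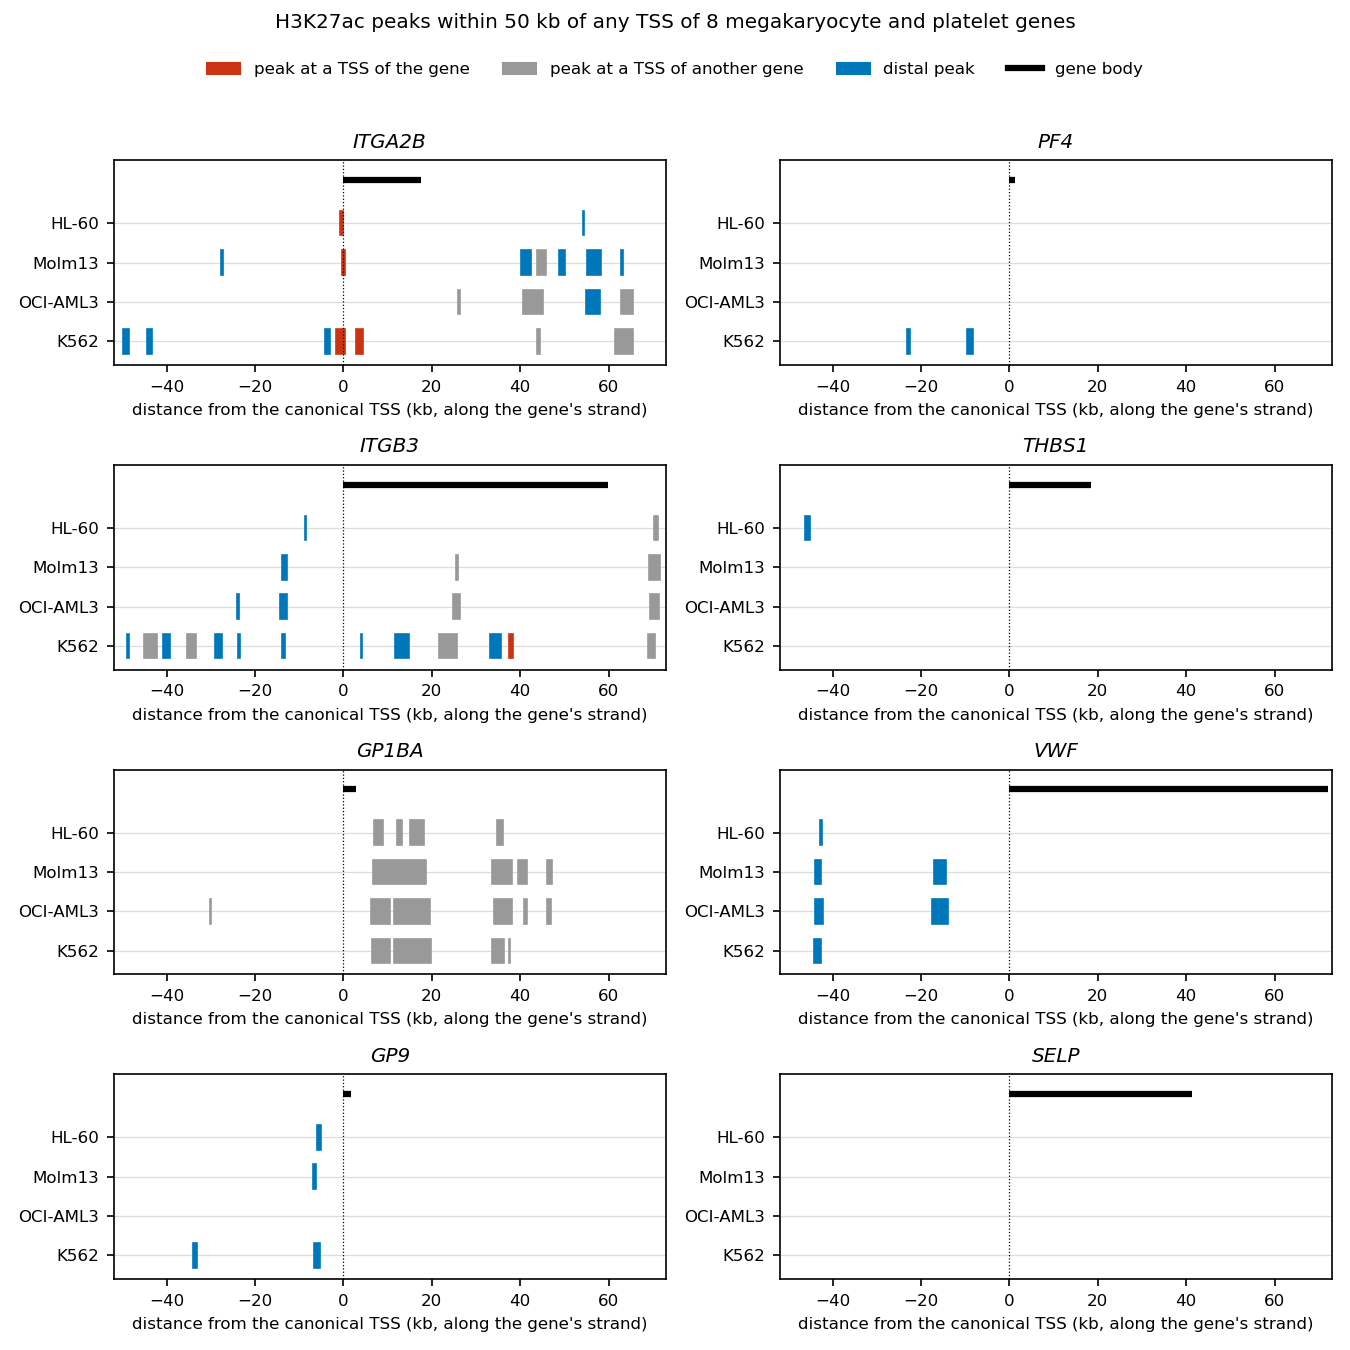
H3K27ac peaks around 8 megakaryocyte and platelet genes, each panel a gene and each row a cell line with 1 library. The horizontal axis is the distance from the canonical TSS in kb along the strand of the gene, coloured boxes are peaks within 50 kb of any annotated TSS of the gene, and the black bar is the gene body, cut at the edge of the panel. K562 has 13 boxes at ITGB3 and 2 at PF4, the 4 lines share boxes downstream of GP1BA, and SELP has none.

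All peaks within 50 kb of a member TSS numbered 29 in K562, 17 in Molm13, 16 in OCI-AML3 and 11 in HL-60. The plot of peak positions shows that they were unevenly spread over the genes, with 13 of the K562 peaks at ITGB3. Merged over the lines, they formed 38 regions, of which 16 held a peak in K562 alone and 4 held peaks in all lines. These counts take only peaks within the span. A further region, at SLC25A39 near ITGA2B, also overlapped an HL-60 peak that lay outside the span. Of the K562-only regions, 9 lay around ITGB3, 4 around ITGA2B, 2 around PF4 and 1 around GP9. This share was that of the whole list. In K562, 16 of 29 member peaks (55.2%) overlapped no peak of another line, and 56% of all K562 peaks did so. In HL-60 the shares were 27.3% of member peaks and 30.7% of all peaks. In Molm13 they were 11.8% and 27%, and in OCI-AML3 12.5% and 29.1%.

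The integrin genes had the most K562 peaks. ITGA2B (ENSG00000005961.19, chr17:44372180-44389649, minus strand) encodes the alpha IIb subunit, which is made almost only in the megakaryocyte lineage and is an early surface marker of it. In HL-60 a peak of 616 bp at chr17:44389808-44390423 ended 159 bp upstream of the canonical TSS, with a fold enrichment of 3.54 at the 48.0th percentile and a q-value of 0.00498. In Molm13 a peak of 706 bp at chr17:44389359-44390064 covered the TSS, but it was among the weakest of its list, with a fold enrichment of 2.67 at the 0.882nd percentile and a q-value of 0.0762. In K562 a peak of 2075 bp at chr17:44389247-44391321 covered it, with a fold enrichment of 2.51 at the 19.1st percentile and a q-value of 0.00805. OCI-AML3 had none, and its nearest peak lay 26.0 kb away at the TSS of FAM171A2. The presence at the canonical ITGA2B TSS thus rested on low to middling peaks in every line that had one, and the Molm13 peak exceeded the q-value of 0.05 that the methods state.

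K562 had further acetylation next to this promoter that no other line shared. A peak of 1596 bp at chr17:44385133-44386728 lay 2921 bp into the gene, over an exon and internal TSSs, with a fold enrichment of 4.21 at the 93.1st percentile and a q-value of 6.89e-10. It was the strongest ITGA2B peak of K562. Upstream, an intergenic peak of 1163 bp at chr17:44392716-44393878 began 3067 bp from the TSS, with a fold enrichment of 3.22 at the 68.0th percentile. Further K562-only peaks lay 43397 bp and 48428 bp upstream, inside GPATCH8. Molm13 had a peak of its own in an intron of GPATCH8, 27259 bp upstream, and HL-60 one of 256 bp that began 54211 bp downstream of the canonical TSS. Most of the remaining peaks lay downstream towards GRN, the progranulin gene. Its TSS was marked in Molm13, OCI-AML3 and K562 at the 78.5th, 78.7th and 68.6th percentile, and SLC25A39 near the end of the span had a TSS peak in OCI-AML3 and K562. Both SLC25A39 peaks also overlapped a distal peak of Molm13 and an HL-60 peak that lay outside the span. A gene with the ITGA2B pattern, present in HL-60, Molm13 and K562 and absent in OCI-AML3, was rare, at 0.0849% of coding genes. For ITGA2B the pattern rested in part on the Molm13 peak with a q-value of 0.0762. That peak was lost at q below 0.05 and in lists of equal length.

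ITGB3 (ENSG00000259207.10, chr17:47253827-47313743, plus strand) encodes the beta 3 subunit, which also pairs with the alpha V subunit in other cells. No line had a peak at its canonical TSS. The nearest peak lay 8.37 kb away in HL-60, 12.7 kb in Molm13, 12.8 kb in OCI-AML3 and 3.88 kb in K562. That K562 peak, of 285 bp, was at the 3.46th percentile with a q-value of 0.0745, and the Molm13 peak had 0.0771. Both exceeded the stated q-value of 0.05. The TSS peak of ITGB3 in K562, 902 bp at chr17:47291301-47292202, lay 248 bp from an internal TSS and 37474 bp into the gene. It had a fold enrichment of 2.34 at the 6.07th percentile and a q-value of 0.0450. It disappeared when only canonical starts were used. The pattern of a TSS peak in K562 alone was found for 4.78% of coding genes.

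K562 had 13 peaks within 50 kb of ITGB3, compared with 2 in HL-60, 4 in OCI-AML3 and 3 in Molm13. Within 50 kb of the canonical TSS they covered 20.6 kb in K562, 3.96 kb in OCI-AML3, 1.68 kb in Molm13 and 0.283 kb in HL-60. Coverage in K562 thus stood above all others, at the 92.03rd percentile of coding genes, compared with the 30.6th, 37.3rd and 51.7th in HL-60, Molm13 and OCI-AML3. Inside the gene, K562 had broad but mostly modest peaks. They included an intronic peak of 3208 bp at the 14.4th percentile, a peak of 3998 bp at the 21.3rd, and a peak of 2478 bp over an exon at chr17:47287012-47289489 at the 76.5th. These bases also lie inside ENSG00000259753, an overlapping gene on the annotation, so that the peaks cannot be assigned to ITGB3 alone. The peak of 3998 bp reached the TSS of another overlapping gene, ENSG00000276790, and overlapped peaks of 510 bp in Molm13 and 1799 bp in OCI-AML3.

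Upstream of ITGB3 the strongest K562 peaks lay at MYL4, a myosin light chain gene. A peak of 2982 bp at chr17:47208669-47211650 had a fold enrichment of 4.50 at the 96.3rd percentile, and another of 2045 bp at chr17:47218539-47220583 had 3.77 at the 84.7th. Between MYL4 and ITGB3, an intergenic peak of 1559 bp at chr17:47224765-47226323 ended 27504 bp before the ITGB3 TSS, at the 83.2nd percentile. None of these overlapped a peak of another line. In contrast, a region that began 12739 bp upstream (chr17:47239455-47241088) was marked in Molm13, OCI-AML3 and K562, at the 3.47th, 44.9th and 3.44th percentile, and HL-60 had a peak of 283 bp 8.37 kb upstream instead. The TSS of EFCAB13, downstream of ITGB3, was marked in all 4 lines.

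**Figure D2:**
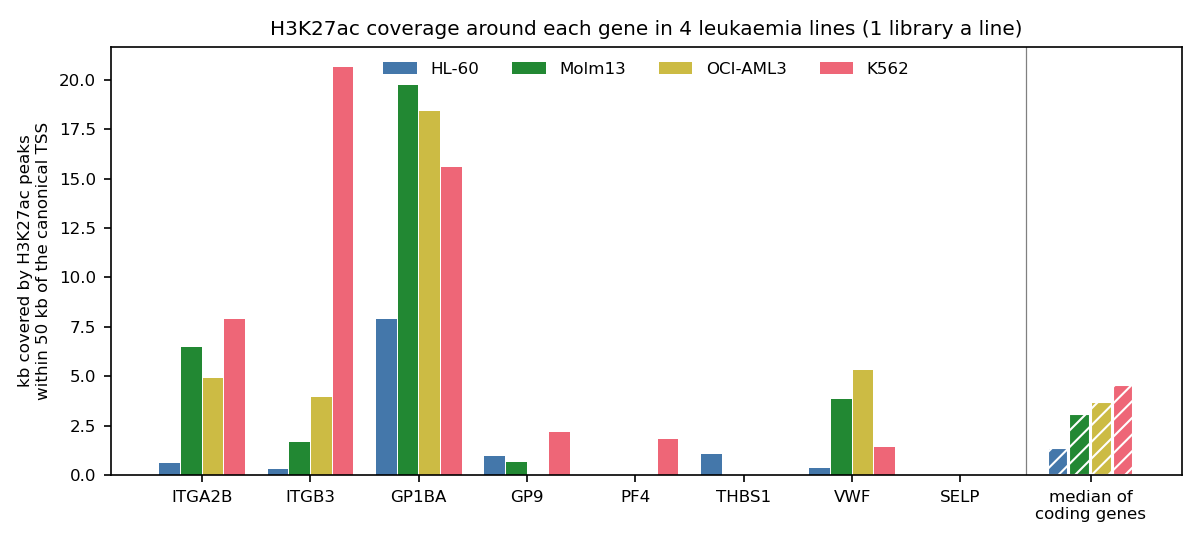
Bases covered by H3K27ac peaks, in kb, within 50 kb on either side of the canonical TSS of each gene, with 1 bar for each line and no error bars since each line had 1 library. Hatched bars at the right give the median over all protein-coding genes. ITGB3 reaches 20.6 kb in K562, GP1BA exceeds the median in all 4 lines, and SELP is at 0 throughout.

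The adhesion receptor genes GP1BA and GP9 encode subunits of the complex that holds von Willebrand factor, and they had different surroundings. GP1BA (ENSG00000185245.9, chr17:4932277-4935023, plus strand) encodes its ligand-binding chain. Covered bases within 50 kb were 7.90 kb in HL-60, 19.8 kb in Molm13, 18.4 kb in OCI-AML3 and 15.6 kb in K562. These placed it high among coding genes in every line, at the 93.8th, 95.9th, 94.6th and 85.2nd percentile. Yet all of its peaks, 6 for OCI-AML3 and 4 for each other line, lay at a TSS of another gene. The nearest began 6.85 kb, 6.73 kb, 6.29 kb and 6.49 kb downstream in that order of lines, at SLC25A11 and RNF167. Further on, peaks covered PFN1, the gene of the actin-binding protein profilin, and ENO3. In Molm13 a single peak of 11904 bp at chr17:4939010-4950913 joined these promoters, with a fold enrichment of 11.0 at the 97.9th percentile. Over PFN1 and ENO3, the peaks measured 8361 bp in K562, 8109 bp in OCI-AML3 and 3351 bp in HL-60, at the 98.0th, 94.98th and 84.5th percentile. These lines had a separate peak at SLC25A11, of 4061 bp in K562, 4331 bp in OCI-AML3 and 2093 bp in HL-60. HL-60 also had a peak of 1055 bp at RNF167. The TSS of SPAG7 further downstream was marked in all lines as well, and that of CAMTA2 in all but HL-60. GP1BA itself thus had no peak at its TSS while lying in a gene-dense stretch with acetylated promoters.

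GP9 (ENSG00000169704.5, chr3:129060779-129062406, plus strand) encodes the small platelet glycoprotein IX. It had no TSS peak, but an intergenic region that began 5014 bp upstream was marked in HL-60, Molm13 and K562. The peak in HL-60 was 945 bp at chr3:129054821-129055765, at the 8.72nd percentile with a q-value of 0.0791. In Molm13 it was 656 bp at chr3:129053992-129054647, at the 28.3rd percentile with a q-value of 0.0216. In K562 it was 1266 bp at chr3:129054122-129055387, with a fold enrichment of 3.95 at the 88.6th percentile and a q-value of 1.85e-06. The K562 peak ranked far higher in its list than the other peaks in theirs, and it overlapped each of them, whereas the HL-60 and Molm13 peaks did not overlap each other. OCI-AML3 had no peak within 50 kb, the nearest being 51.9 kb away. A further K562 peak of 928 bp lay in an intron of EFCC1, 33091 bp upstream, at the 72.6th percentile.

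Sequence at the centre of the K562 peaks upstream of GP9 and PF4 is printed because these were the distal peaks nearest to 2 members without a TSS peak in any line, and the bases near VWF because all 4 lines shared them. All are plus-strand hg38 sequence, with capitals for the GATA motif. The GP9 stretch is chr3:129054605-129054904, the PF4 stretch chr4:73990838-73991137 and the VWF stretch chr12:6167408-6167480.
GP9 upstream peak: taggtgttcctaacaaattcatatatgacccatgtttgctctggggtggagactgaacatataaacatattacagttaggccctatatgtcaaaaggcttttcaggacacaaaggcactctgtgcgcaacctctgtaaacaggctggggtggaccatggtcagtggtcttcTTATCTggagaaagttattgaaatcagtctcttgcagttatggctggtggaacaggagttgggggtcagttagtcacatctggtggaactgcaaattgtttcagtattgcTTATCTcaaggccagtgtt
PF4 upstream peak: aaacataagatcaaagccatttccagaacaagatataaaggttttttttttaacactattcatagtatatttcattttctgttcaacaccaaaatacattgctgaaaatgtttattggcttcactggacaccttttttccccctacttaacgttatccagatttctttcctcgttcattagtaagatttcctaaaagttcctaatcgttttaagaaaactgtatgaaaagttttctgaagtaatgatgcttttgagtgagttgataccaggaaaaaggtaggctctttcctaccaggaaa
VWF upstream bases: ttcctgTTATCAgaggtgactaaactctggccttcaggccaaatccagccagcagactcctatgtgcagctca

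The GP9 stretch held 2 matches, both TTATCT, which is AGATAA on the other strand, and the PF4 stretch held 0. The PF4 stretch does hold GGATAA on the other strand, which was not a searched form. Among the 21539 distal K562 peaks long enough to give a centre of 300 bases, 52.5% held at least 1 match. Over the full K562 peaks, GP9 had 4 matches or 3.16 per kb, PF4 had 2 or 1.52 per kb, and the peak 3067 bp upstream of ITGA2B had 1 or 0.86 per kb. A K562 peak of 285 bp that began 3878 bp into ITGB3 had 0. The median over all distal K562 peaks was 2.26 per kb, so GP9 lay above it and PF4, ITGA2B and ITGB3 below. The other lists had medians of 1.87 for OCI-AML3, 1.7 for Molm13 and 1.58 for HL-60.

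The granule proteins showed little acetylation. PF4 (ENSG00000163737.5, chr4:73980811-73982027, minus strand) encodes platelet factor 4, a chemokine stored in alpha granules. Its nearest peak lay 74.1 kb away in HL-60, 75.1 kb in Molm13 and 74.7 kb in OCI-AML3, and 8.30 kb away in K562. PF4 thus had peaks within 50 kb in K562 and in no other line. The nearer K562 peak, 1318 bp at chr4:73990329-73991646, was intergenic, with a fold enrichment of 2.92 at the 54.0th percentile and a q-value of 0.00497. The other, 495 bp in an intron of ENSG00000287037 and 22593 bp upstream, was at the 21.3rd percentile with a q-value of 0.0474. They covered 1.81 kb, at the 34.0th percentile of coding genes, so that even in K562 the gene lay in a sparsely marked stretch. PPBP, a granule protein gene of the wider list described below, likewise had covered bases within 50 kb in K562 alone, at 3.61 kb. Whether the K562 peaks belong to PF4 was not tested.

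THBS1 (ENSG00000137801.11, chr15:39581079-39599466, plus strand) encodes thrombospondin 1, an adhesive glycoprotein of alpha granules that many other cells make too. The nearest peak was 45.2 kb away in HL-60, 104 kb in Molm13, 104 kb in OCI-AML3 and 63.5 kb in K562. The HL-60 peak, 1070 bp at chr15:39534790-39535859, was at the 6.77th percentile with a q-value of 0.0821, so that the gene had no peak within 50 kb at the stated q-value of 0.05. Its promoter was CpG-rich. CpG content at or above its 24 was found for 8314 promoters, and of these 71.8% carried a TSS peak in OCI-AML3, 69.3% in K562, 64.6% in Molm13 and 53.6% in HL-60. The absence at THBS1 was thus the less common state for promoters of this kind, though 22.3% of them lacked a peak in all 4 lines.

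CpG content also placed the other members. In the bin with 0 to 1 CpG, where SELP fell, 6.99% of promoters had a TSS peak in OCI-AML3, 6.06% in K562, 5.36% in Molm13 and 3.30% in HL-60. In the bin with 2 to 4 CpG, where ITGA2B fell, the shares were 12.98%, 11.8%, 11.6% and 6.44% in the same order. ITGA2B with peaks in 3 lines was therefore among the minority of its bin in those lines, and SELP without any was among the majority. The Molm13 peak of ITGA2B had a q-value of 0.0762 and was lost at q below 0.05. GP9 fell in the bin with 5 to 9 CpG, where 15.4% to 24.5% of promoters had a TSS peak.

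The last pair of genes is shared with endothelium, where both proteins are stored in Weibel-Palade bodies. Of 7 endothelial markers, PECAM1, which leukocytes also express, carried a TSS peak in every line, and CDH5, KDR, TEK, TIE1, EMCN and CLDN5 carried one in none. VWF (ENSG00000110799.14, chr12:5948877-6124770, minus strand) encodes von Willebrand factor. It had no TSS peak in any line. From 42279 bp upstream, however, an intergenic region (chr12:6166949-6168787) was marked in all 4 lines, by 1667 bp in OCI-AML3, 1439 bp in K562, 1214 bp in Molm13 and 362 bp in HL-60. These peaks were at the 33.5th, 68.8th, 58.1st and 49.7th percentile of their lists, and the 73 bases printed above were common to them. That stretch holds 1 match to the GATA letters, TTATCA, which is TGATAA on the other strand. Nearer to the gene, a region that began 13800 bp upstream (chr12:6138470-6142131) was marked in Molm13 by 2657 bp and in OCI-AML3 by 3662 bp, at the 65.0th and 71.3rd percentile, but not in HL-60 or K562. VWF was thus the member whose coverage was highest in OCI-AML3, at 5.33 kb, compared with 3.87 kb in Molm13, 1.44 kb in K562 and 0.362 kb in HL-60. CD9, an adhesion receptor gene of the wider list described below, had the same coverage in K562, 1.44 kb. It carried a TSS peak in Molm13 and OCI-AML3, at the 92.2nd and 83.3rd percentile. Whether the region common to the 4 lines belongs to VWF or to CD9 was not tested.

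SELP (ENSG00000174175.17, chr1:169588849-169630193, minus strand) encodes P-selectin, which moves from granules to the surface of activated platelets and binds leukocytes. No line had a peak within 50 kb of any of its 7 TSSs. The nearest peak was 144 kb away in HL-60, 144 kb in Molm13, 144 kb in OCI-AML3 and 121 kb in K562. It was the only member with no peak in the span in any line.

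Compared over all members, the median covered length within 50 kb was 2003.5 bp in K562, 1979.5 bp in OCI-AML3, 1165.5 bp in Molm13 and 489 bp in HL-60. The medians over all coding genes were 4563, 3707, 3108 and 1381 bp, so that the members lay below them in each line. K562 had the highest coverage of the 4 lines at ITGA2B, ITGB3, GP9 and PF4, that is at 4 of 8 members. The same held for 47.3% of coding genes, so that this count was near the background. At ITGA2B the coverage was 7.92 kb in K562, 6.50 kb in Molm13, 4.90 kb in OCI-AML3 and 0.616 kb in HL-60, while GP1BA was highest in Molm13, VWF in OCI-AML3 and THBS1 in HL-60.

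A wider list of 70 other megakaryocyte and platelet genes was not as poor in TSS peaks as the members. They carried a TSS peak at 43 genes in K562 (61.4%) and 41 in OCI-AML3 (58.6%), and at 37 in Molm13 (52.9%) and 28 in HL-60 (40%), compared with 55.9%, 57.7%, 53.9% and 44.7% of coding genes. The roles differed from each other. Of 12 granule proteins, 2 had a TSS peak in each of HL-60, Molm13 and OCI-AML3, and 3 in K562. Of 11 adhesion receptors, 1, 3, 5 and 5 had one in HL-60, Molm13, OCI-AML3 and K562, and of 11 activation receptors 2, 2, 3 and 5. In contrast, 8, 9, 9 and 7 of 9 enzyme and signalling genes had a TSS peak in the same order of lines, as did 6, 8, 8 and 9 of 10 cytoskeletal genes and 6, 9, 10 and 10 of 12 transcription factor genes. The receptor and granule roles, to which the 8 members belong, thus had the lowest shares in each line, as shown in the plot by role. The 5 genes of granule formation had 3, 4, 4 and 4.

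**Figure D3:**
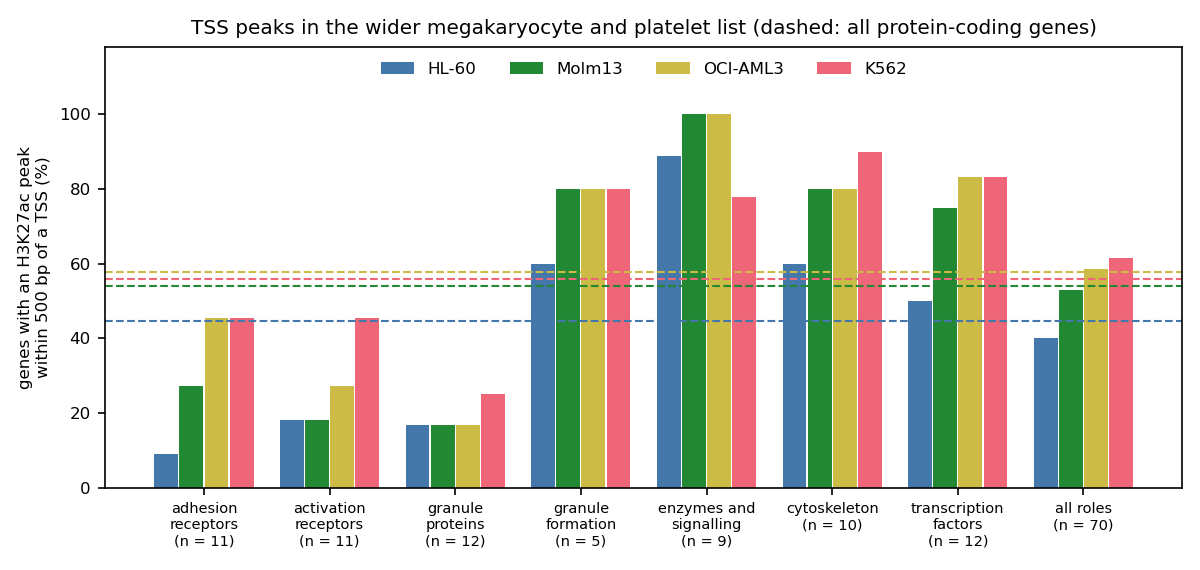
Share of genes of the wider list with an H3K27ac peak within 500 bp of a TSS, in percent, by role and for the whole list, with 1 bar for each line and the number of genes under each role. Dashed lines give the share over all protein-coding genes in each line. Granule proteins reach 16.7% to 25% and lie below the dashed lines, and the whole list lies at 40% to 61.4%, near them.

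The 70 genes were chosen with earlier results of these data known, so their shares are descriptions only. The pattern of ITGB3, a TSS peak in K562 alone, was found at 9 of the 70 genes (12.9%), beside 4.78% of coding genes. The 5 with the strongest TSS peaks were TAL1 at the 98.6th percentile of the K562 list, GATA1 at the 98.0th, TBXA2R at the 95.5th, PEAR1 at the 89.3rd and TUBB1 at the 83.96th. TAL1 and GATA1 are transcription factors of the erythroid and megakaryocytic lineages, TBXA2R is the thromboxane receptor, PEAR1 a platelet receptor that signals on contact and TUBB1 the beta tubulin of the platelet marginal band. All of these peaks ranked well above that of ITGB3, at the 6.07th percentile. GATA1 also stands among the erythroid markers, which moved with this pattern, at 8 of 9 in K562 and 1 of 9 in each other line, and their part in it was not tested. No gene of the wider list shared the pattern of ITGA2B, and 19 of the 70 (27.1%) had a TSS peak in no line, like 6 of the members.

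The remaining list of the series holds 395 peaks of dCas9, of which 393 on chromosomes 1 to 22, X and Y were used, in K562 cells with 4 sgRNAs against the LTR2B family of endogenous retroviral repeats. None of them lay within 50 kb of a member TSS. Such peaks were also rare among all coding genes, at 2.86%. The absence of these peaks from so few members therefore did not set the members apart. The nearest to any member was 57789 bp from SELP, followed by 202811 bp from ITGA2B.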

How the data were processed

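ChIP-seq of H3K27ac was analysed in HL-60, Molm13, OCI-AML3 (empty vector) and K562 (empty vector), 1 library each, grouped by sample titles. Per the submitters' processing notes and the study's methods, the authors trimmed reads with Trim Galore 0.4.5, aligned them to hg38 with Bowtie2 2.3.4 (the methods give another version), dropped reads that mapped to several places and called broad peaks with MACS2 2.1.1 at a stated q-value of 0.05. deepTools is also listed. The control used in calling is not given in the sources used here. The deposited lists hold each peak's position, a score derived by the caller, its ratio of signal to local background (fold enrichment), and p-value and q-value, each as −log10. Replicates were not pooled, since each list was of 1 library. The deposited score and p-value were not used further. The largest q-value of a list was 0.0947 to 0.0995, above the stated limit, and 15.0% of HL-60 peaks and 5.47% to 5.96% of those of the other lists exceeded 0.05. All peaks were kept.

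Peaks were intersected with GENCODE v44 starts of all transcripts. A TSS peak lay within 500 bp of a TSS, and a distal peak lay beyond 500 bp from every annotated TSS. Covered bases were counted within 50 kb of the canonical TSS, and percentiles used mean ranks for ties. Coordinates are 1-based. All 8 members were named, and from the wider list up to 5 genes per pattern that equalled a member's TSS pattern over the 4 lines, ordered by their strongest peak. Other genes were named where a member's peak lay at them, and PPBP and CD9 for coverage like that of PF4 and VWF. The members and lists were chosen with earlier results of these data known. No test was run, because no line had replicates. SciPy 1.17.1, pandas 2.3.3, NumPy 2.4.6 and Matplotlib 3.10.9 under Python 3.11.15 were used, counts of genes with TSS peaks equalled those of bedtools 2.31.1, and the overlap code was tested on simulated data. The alternatives tried were q-value limits, equal list lengths of 20772 peaks, other distances, canonical starts and merging within 1 kb.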

Additional observations from a re-analysis of the deposited data

How the results depend on the processing

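Of 99 alternatives, 65 left a count within 1.5 times of the reported value and 34 moved it. No alternative moved the counts of the wider list. Members with a TSS peak fell to 0 in HL-60 at q below 0.001, to 0 in Molm13 at q below 0.05, at q below 0.001 and in lists of equal length, and to 1 in K562 at q below 0.001, in lists of equal length and with canonical starts. ITGA2B was the member left in K562 under each of these. Peaks within 50 kb came to 5, 9 and 15 in HL-60, Molm13 and K562 at q below 0.001, and to 9, 10 and 18 in Molm13, OCI-AML3 and K562 in lists of equal length. They were 6, 6, 7 and 15 in HL-60, Molm13, OCI-AML3 and K562 within 25 kb and 19, 30, 35 and 56 within 100 kb. Members with a distal peak fell in HL-60 to 3 at q below 0.05, 2 at q below 0.001 and 2 within 25 kb, and in Molm13 to 2 at q below 0.001 and 2 in lists of equal length. Median covered bases in HL-60 were 141.5 at q below 0.05, 0 at q below 0.001 and 141.5 within 25 kb. In Molm13 they were 583 at q below 0.05, 0 at q below 0.001, 0 in lists of equal length and 681 within 25 kb, and in OCI-AML3 0 within 25 kb. Fewer peaks or bases entered each of these narrower settings. No paired analysis was possible because each line had 1 library and no test was run. Depth was unknown, so a missing peak means that none was called in that library, not that acetylation was absent.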
